A study of Homo sapiens with 4 samples.

Results

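MHCC-97H cells, an established metastatic line of hepatocellular carcinoma (HCC), were given migrasomes (Migs) from normoxic cells in one culture and Migs from hypoxic CD147-knockout cells in another, and the messenger RNA of both cultures was compared. Migs are vesicles that grow on the retraction fibers which migrating cells leave behind, and neighbouring cells can take them up with their protein and RNA cargo. CD147, encoded by BSG, is a transmembrane glycoprotein known for inducing matrix metalloproteinases and for escorting lactate transporters to the plasma membrane. The comparison uses 2 of the 4 libraries of the series, 1 for each condition, and describes 13177 well-counted genes, those with 50 or more reads in both, of the 58735 genes counted.

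All recipient cells were MHCC-97H cells labelled as wild type, treated for 24 h and assigned to the same batch. The normo-Migs library came from cells given 2 μg of Migs of MHCC-97H cells kept in normoxia, and the CD147KO-Migs library from cells given 2 μg of Migs of CD147-knockout MHCC-97H cells kept in hypoxia. Beside them stand a library of cells given 2 μg of Migs of hypoxic MHCC-97H cells that carry CD147 (hypo-Migs) and a library of cells given PBS. The labels and the supplementary methods give normoxia for the normo-Migs donors, whereas the study's main methods write hypoxia for them, and the labels were followed here. By the labels the donors of the pair differed in both oxygen and CD147, and the part of each cannot be told apart within the pair; under the main methods they would differ in CD147 alone. The hypo-Migs values are given beside the pair because, by the labels, their donors shared the oxygen of one and the CD147 of the other. The knockout line came from another laboratory, and whether it is 1 clone is not given in the sources used here.

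Reads on genes numbered 34559968 after normo-Migs, 35043203 after CD147KO-Migs, 40285223 after hypo-Migs and 33882496 after PBS. Each condition had 1 library, so no comparison has a replicate check. Levels are reads per 1000000 reads after TMM scaling (CPM), differences are log2 values coded normo-Migs minus CD147KO-Migs, so that a positive value is higher with normo-Migs, and their 95% intervals are exact binomial intervals of the reads. A gene passed the test at an adjusted p of 0.05 or less in edgeR's two-sided exact binomial test, with Benjamini-Hochberg adjustment over the 19895 genes that reached 10 reads in at least 1 of the 4 libraries. That test compares 2 libraries, not 2 conditions, and covers counting error only.

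The observed spread was wider than counting error. Among genes with 1000 to 5000 reads in the library where they had fewer, the log2 differences had a robust SD of 0.106 where counting alone gives 0.0448. Among those with 5000 or more reads there it was 0.0818 where counting gives 0.0228. Counts of 2 also outnumbered counts of 1 in each library, with 2095 against 1500 genes with normo-Migs and 2017 against 1418 genes with CD147KO-Migs, a pattern that arises where the reads of a pair are counted singly; whether they were was not tested. Intervals that treat such reads as independent are too narrow, so calls were also counted after dividing each count by 2.

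The library labelled PBS stood apart from the other 3. In it 251 genes had 3 reads or fewer that had 100 or more in each Mig library, while the reverse held for 13 genes. SPARC, a matricellular protein, had 0 reads with PBS against 13404, 16845 and 15206 with normo-Migs, hypo-Migs and CD147KO-Migs. Between the normo-Migs and CD147KO-Migs libraries only 1 gene had such a contrast, GAGE12G, a member of a family of near-identical copies. PBS levels are therefore printed beside the others for some genes and are not compared with them below.

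The cells' identity was checked on marker genes. KRT8 and KRT18, the keratins of simple epithelia, were among the most abundant messages, at 3792 and 1749 CPM with normo-Migs and 4497 and 2074 CPM with CD147KO-Migs. Several hepatocyte markers were absent, since ALB, AFP, APOB and TTR had 0 reads in all 4 libraries, whereas HNF4A, a hepatocyte transcription factor, had 146 reads with normo-Migs and 141 with CD147KO-Migs. Of 19 leukocyte markers 8 had 0 reads after normo-Migs and 5 after CD147KO-Migs, among them PTPRC with 0 and 2 reads, and their summed level was 13.2 CPM after normo-Migs and 12.4 CPM after CD147KO-Migs, led by CSF1R at 5.11 and 3.51 CPM, a log2 difference of 0.53 that passed the test described above, but not when each count was divided by 2. Of 14 endothelial markers 7 and 3 had 0 reads, with sums of 43.7 and 45.5 CPM, led by EGFL7, and VWF had 0 and 2 reads. Fibroblast and stellate markers summed to 225 and 236 CPM, led by COL1A1, and COL1A2 had 0 reads in both. Of their 9 well-counted members 3 passed the test higher with CD147KO-Migs (1 when each count was divided by 2) and none with normo-Migs, namely the receptor PDGFRB (log2 difference -0.27) and, on 77 and 138 and on 51 and 98 reads, decorin (DCN, -0.79) and desmin (DES, -0.88); the part of such cells in the results below was not tested. In bulk RNA, fewer cells of a type and less RNA per cell cannot be told apart.

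Most genes lay close together in the pair. The median log2 difference over the well-counted genes was 0.00497, with quartiles of -0.1 and 0.1 and with 5% of genes below -0.355 and 5% above 0.29. It rose with the lower count of the pair, from -0.0309 at 50 to 200 reads and -0.0238 at 200 to 1000. At 1000 to 5000 reads it was 0.0116, and at 5000 or more 0.0367. At the study's criteria for DEGs (a log2 difference of at least 1 in either direction, with an adjusted p up to 0.05), 470 genes were higher with normo-Migs (2.36% of those tested) and 507 with CD147KO-Migs (2.55%). Of these 977 genes, 953 had under 50 reads in at least 1 library, and 406 had 3 reads or fewer in 1 library. Among well-counted genes 9 and 15 met the criteria. When each count was divided by 2, 156 of all tested genes met them. At 1.5-fold, 99 well-counted genes were higher with normo-Migs (0.751%) and 149 with CD147KO-Migs (1.13%). By the adjusted p alone, 2110 were higher with normo-Migs (16% of the well-counted genes) and 1713 with CD147KO-Migs (13%), so 55.2% of the calls were on the normo-Migs side, which became 44.0% when libraries were scaled by total reads. These shares are the background against which the lists below are read, and they fell to 6.56% and 4.55% when each count was divided by 2. When the coefficient of variation of the 3 Mig libraries was assumed as the spread, they fell to 0.258% and 0.478%, and no list below kept more than 2 members past the test. All these shares cover genes of every depth, and shares by depth were not counted. Genes with more reads pass the test at smaller differences. A list of abundant genes can therefore exceed the background share more readily than a list of genes with few reads.

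**Figure D1:**
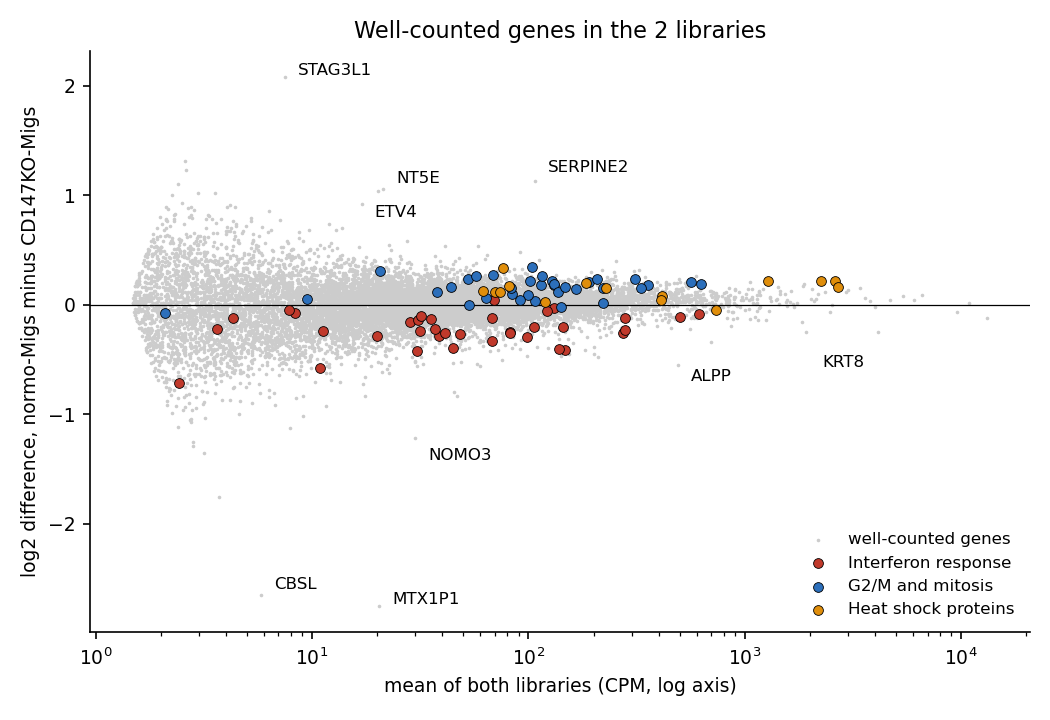
Each gray point is a well-counted gene, plotted by its mean level in both libraries (CPM, log axis) and its log2 difference, normo-Migs minus CD147KO-Migs. Interferon response genes (red) lie mostly below 0, genes of G2/M and mitosis (blue) and heat shock proteins (orange) mostly above it, and the points farthest from 0 include the gene copies MTX1P1, CBSL and STAG3L1.

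The interferon response was higher with CD147KO-Migs. In this pathway, the cytosolic sensors of viral RNA and the interferon receptors act through STAT2 and IRF9, which bind a short promoter motif, the interferon-stimulated response element (ISRE), and switch on a set of antiviral effectors. Of the 36 well-counted members of a list of 37 such genes, 35 were lower with normo-Migs than with CD147KO-Migs and 24 passed the test in that direction, none in the other, beside a background of 13% and 16% of genes. The median log2 difference was -0.228, with quartiles of -0.287 and -0.124, against 0.00497 over all well-counted genes. When each count was divided by 2, 19 of the 36 passed, and none did when the coefficient of variation of the 3 Mig libraries was assumed as the spread.

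Sensors and effectors lay on the same side. The RNA sensors DDX58 (RIG-I) and IFIH1 (MDA5) had log2 differences of -0.29 and -0.26. IRF9, counted on 115 and 138 reads, did not pass the test. The effector IFITM1, a membrane protein that blocks viral entry, was at 8.72 CPM after normo-Migs, 13.6 after hypo-Migs, 13.0 after CD147KO-Migs and 11.2 after PBS, and its log2 difference of -0.58 (95% interval -0.79 to -0.37) was among the largest of the list. IFIT1, which binds foreign RNA caps, was at 119, 146 and 157 CPM in the 3 Mig libraries in the same order, with a log2 difference of -0.41 (-0.47 to -0.35). PARP14, an ADP-ribosyltransferase induced by interferon, was at 126, 157 and 168 CPM, with -0.41 (-0.47 to -0.36). BST2, the tetherin that holds budding virions at the cell surface and the most abundant member, was at 595, 590 and 632 CPM, with -0.09 (-0.11 to -0.06). CMPK2, the member with the largest difference, rested on 62 and 106 reads. The exception in direction was IFIT2, at 70.6 and 68.6 CPM, which did not pass the test, nor did MX1 on 278 and 301 reads.

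The hypo-Migs library was close to CD147KO-Migs for these genes. The list's median log2 difference was 0.197 for hypo-Migs minus normo-Migs and -0.0232 for hypo-Migs minus CD147KO-Migs; the first shares the normo-Migs library with the main comparison and the second the CD147KO-Migs library, so the 3 medians are not independent. Summed over the list, the level was 3440 CPM after normo-Migs, 3760 after hypo-Migs, 3910 after CD147KO-Migs and 2980 after PBS.

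The ISRE was looked for as GAAANNGAAA on both strands of the 250 bases before the start of each gene, in the RefSeq promoters of build GRCh38.p14, which matched 27 of the interferon genes and 9817 well-counted genes in all. It was found in 16 of the 27 (59.3%) and in 226 of the 9817 (2.3%). For the 4 members with the largest differences among those that held it, 1 match each is shown on the strand of the gene, with that match in capitals, because they show the letters in promoters of this group; the fragments lie at chr11:313975-314034 (IFITM1), chr1:78620350-78620409 (IFI44L), chr3:122680785-122680838 (PARP14) and chr10:89392482-89392541 (IFIT1), all genes of the plus strand.
IFITM1: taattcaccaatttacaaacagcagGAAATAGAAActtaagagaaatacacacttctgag
IFI44L: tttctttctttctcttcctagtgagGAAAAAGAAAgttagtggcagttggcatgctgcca
PARP14: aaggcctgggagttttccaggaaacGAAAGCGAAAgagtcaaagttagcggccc
IFIT1: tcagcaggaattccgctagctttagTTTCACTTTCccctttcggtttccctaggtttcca
In IFIT1 the motif reads on the opposite strand, and another match on that strand lies in lower case within the fragment. IFI44L held another match too, in the same 60 bases repeated at chr1:78620259-78620318. The 204 well-counted genes that held it outside the interferon and MHC lists had a median log2 difference of -0.0003, with 102 genes on each side, against 0.00802 for the 9591 genes without it. A match of these letters is a description and not evidence of binding.

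Genes of antigen presentation by MHC class I were also higher with CD147KO-Migs. This pathway cuts proteins in the immunoproteasome, carries the peptides through the TAP transporter and loads them on class I molecules with B2M, the invariant light chain. Of 15 well-counted members 14 were higher with CD147KO-Migs, 7 passed the test in that direction and none in the other, and the median log2 difference was -0.128. For hypo-Migs, the list's median was 0.00666 for hypo-Migs minus normo-Migs and -0.0838 for hypo-Migs minus CD147KO-Migs. The immunoproteasome subunit PSMB9 was at 19.5 CPM after normo-Migs, 22.4 after hypo-Migs and 26.0 after CD147KO-Migs, with a log2 difference of -0.42 (-0.56 to -0.27). PSMB8, its partner subunit, was at 67.8, 66.2 and 84.2 CPM, with -0.31, and NLRC5, the transactivator of class I genes, had -0.29 (-0.36 to -0.21). B2M was at 839, 892 and 920 CPM, with -0.13 (-0.16 to -0.11). The reads of HLA genes can be shared among near-identical alleles and copies, and of these HLA-E and HLA-F passed the test. The ISRE letters were found in 6 of the 12 promoters of this list.

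**Figure D2:**
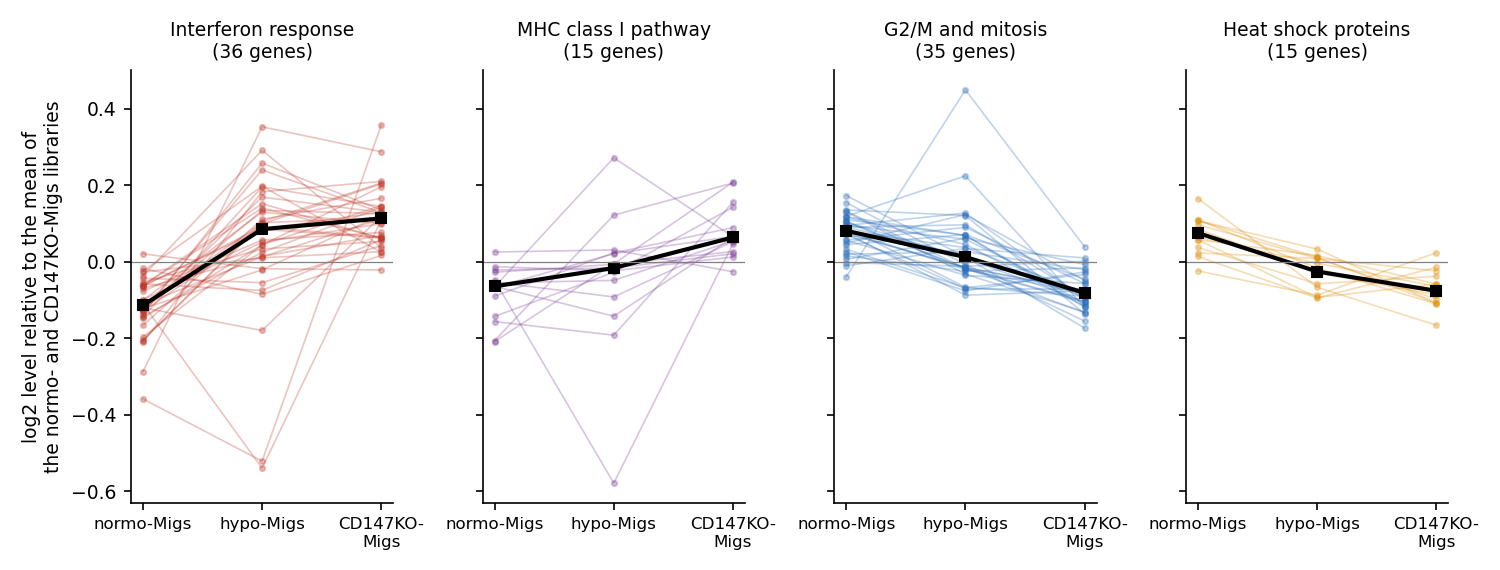
Each thin line is a well-counted gene of the list named above the panel, drawn as its log2 level in the normo-Migs, hypo-Migs and CD147KO-Migs libraries relative to the mean of the first and the last; the black line joins the medians. The median of the interferon genes is lowest after normo-Migs, with hypo-Migs close to CD147KO-Migs, and that of the G2/M genes after hypo-Migs lies between both, while single genes depart from these orders.

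The other genes higher after CD147KO-Migs included the keratins KRT8 and KRT18, the well-counted secreted liver proteins and the aldo-keto reductases AKR1C1 and AKR1C2. KRT8 and KRT18, which pair into one filament, both had a log2 difference of -0.25, with intervals of -0.26 to -0.24 and -0.26 to -0.23, and KRT8 gave the largest difference in CPM of all protein-coding genes on this side, -704.8 CPM for normo-Migs minus CD147KO-Migs. The list of 20 well-counted epithelial genes was mixed, with 6 that passed higher with CD147KO-Migs and 2 higher with normo-Migs, KRT7 (0.15) and CRB3 (0.79), and a median of -0.0518. When each count was divided by 2, 5 and 2 passed. ALPP, placental alkaline phosphatase, was at 397 CPM after normo-Migs, 447 after hypo-Migs and 581 after CD147KO-Migs, with -0.55 (-0.58 to -0.52). Its level in the library labelled PBS was 1511 CPM.

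Of 29 secreted liver proteins listed, only 6 were well-counted, and all 6 were higher after CD147KO-Migs, 4 of them past the test. Complement C3 was at 618 CPM after normo-Migs, 678 after hypo-Migs and 782 after CD147KO-Migs, a log2 difference of -0.34 (-0.37 to -0.32). The fibrinogen chains FGB and FGG had 561 and 205 reads after normo-Migs, 827 and 322 after hypo-Migs and 832 and 381 after CD147KO-Migs, with log2 differences of -0.53 (-0.69 to -0.37) and -0.85 (-1.11 to -0.61). RBP4, the plasma carrier of retinol, had -0.47 (-0.62 to -0.32). CPS1, the urea cycle enzyme that fixes ammonia, was at 1741 CPM after normo-Migs and 1944 after CD147KO-Migs.

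AKR1C1 and AKR1C2, aldo-keto reductases that NRF2 is known to induce, were at 175 and 157 CPM after normo-Migs, 215 and 188 after hypo-Migs and 243 and 208 after CD147KO-Migs. Their log2 differences were -0.48 (-0.53 to -0.43) and -0.41 (-0.46 to -0.36), and as close copies they may share reads. Over the 24 well-counted NRF2 targets the median was -0.0812, with 13 that passed higher with CD147KO-Migs and 4 with normo-Migs (8 and 2 when each count was divided by 2). Among the latter were SLC7A11 (0.21), the cystine importer, and GCLC (0.19), which starts glutathione synthesis. The antioxidant response element, searched as TGACNNNGC, was found in 4 of 16 promoters of this list and in 12.1% of all.

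Of 20 p53 targets 18 were higher with CD147KO-Migs and 6 passed (3 when each count was divided by 2), none in the other direction, with a median of -0.0927. BBC3 (PUMA), which triggers apoptosis, had 159 reads after normo-Migs, 192 after hypo-Migs and 282 after CD147KO-Migs, a log2 difference of -0.78 (-1.08 to -0.50). CDKN1A, the cell cycle inhibitor and most abundant target, was at 146 and 152 CPM and did not pass. Of 21 NF-kB targets and chemokines 8 passed higher with CD147KO-Migs (4 when each count was divided by 2) and none with normo-Migs, with a median of -0.0949 and with CXCL5, a chemokine that draws neutrophils, at -0.29 (-0.41 to -0.16). FOS, a subunit of AP-1 and an immediate early gene, had 567, 859 and 894 reads with normo-Migs, hypo-Migs and CD147KO-Migs, a log2 difference of -0.62 (-0.77 to -0.46), whereas the list of 28 immediate early genes had a median of -0.0138 with 5 and 8 genes past the test on the normo-Migs and CD147KO-Migs sides, or 2 and 4 when each count was divided by 2.

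**Figure D3:**
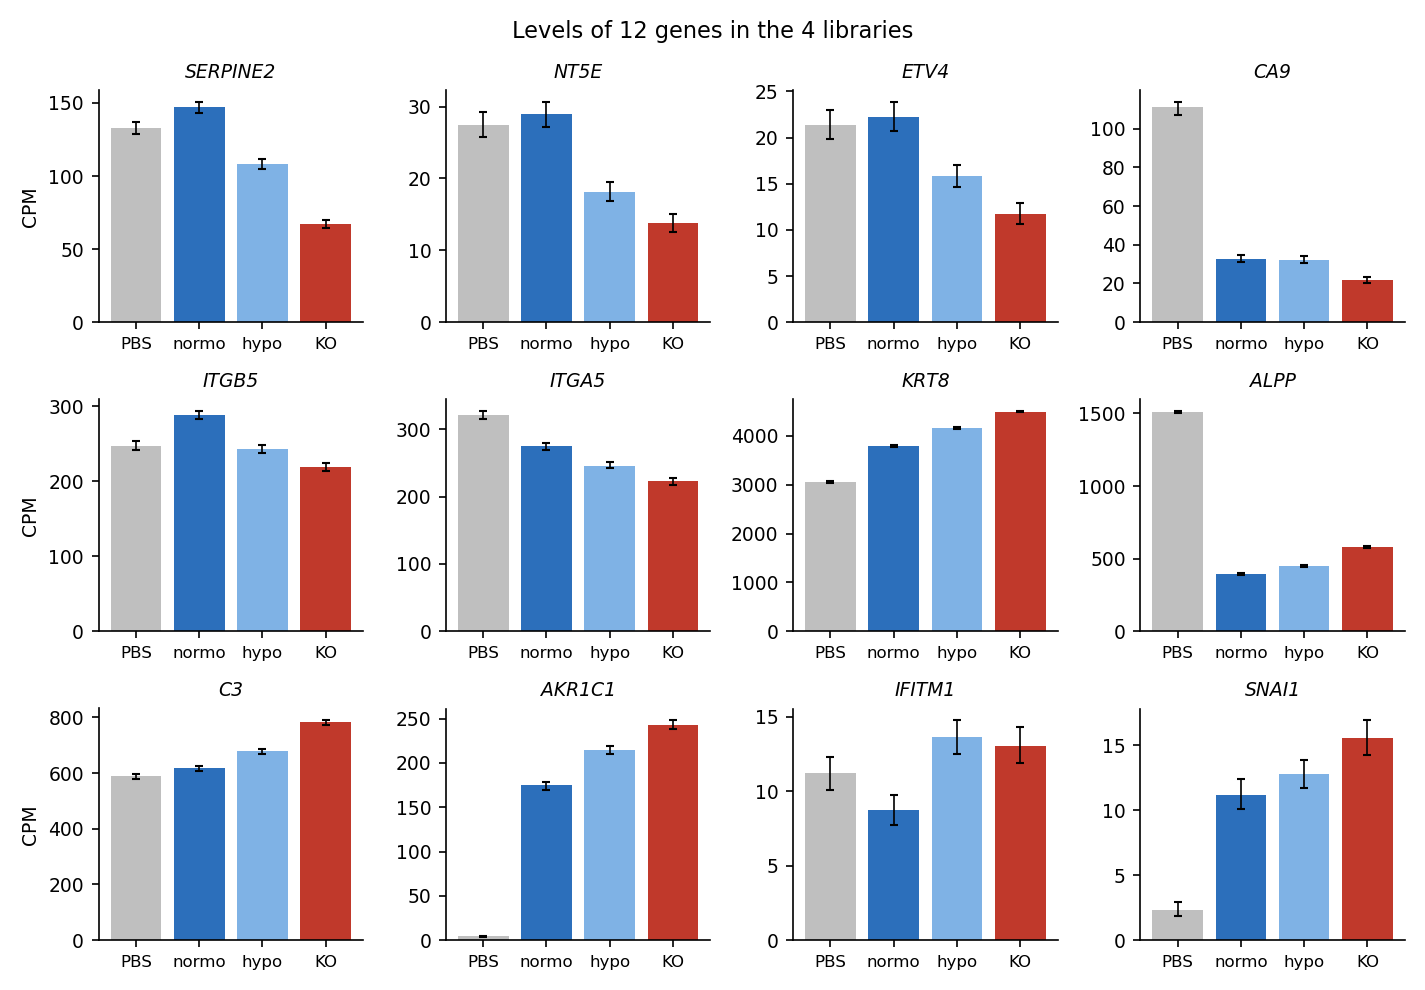
Bars give the level of 12 named genes (CPM) in the libraries labelled PBS, normo-Migs (normo), hypo-Migs (hypo) and CD147KO-Migs (KO), 1 library each, with exact 95% Poisson intervals that cover counting error only. SERPINE2, NT5E and ETV4 are lowest after CD147KO-Migs and KRT8, C3 and AKR1C1 highest, with hypo-Migs between. The PBS bars show levels only.

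On the other side stood SERPINE2, NT5E and ETV4, along with many integrin subunits and mesenchymal genes. SERPINE2 (protease nexin 1), a secreted inhibitor of thrombin and plasminogen activators, was at 147 CPM after normo-Migs, 108 after hypo-Migs, 67.2 after CD147KO-Migs and 133 after PBS. Its log2 difference was 1.13 (1.06 to 1.20), or 2.19-fold, which among well-counted protein-coding genes higher with normo-Migs came after PCSK4 alone, at 1.31 on 126 and 51 reads. NT5E (CD73), the surface enzyme that makes adenosine from AMP, was at 28.9 CPM after normo-Migs, 18.1 after hypo-Migs and 13.8 after CD147KO-Migs, with 1.06 (0.90 to 1.22). ETV4, an ETS factor induced by ERK signalling, was at 22.2, 15.8 and 11.7 CPM, with 0.92 (0.75 to 1.10), and its relative ETV5 had 0.34. For SERPINE2, NT5E and ETV4 hypo-Migs lay between the pair.

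Of 15 well-counted integrin subunits, the receptors that tie cells to matrix, 8 passed higher with normo-Migs and 2 higher with CD147KO-Migs, with a median of 0.134; when each count was divided by 2, 7 and 0 passed. ITGB5 was at 288 CPM after normo-Migs, 243 after hypo-Migs and 219 after CD147KO-Migs, a log2 difference of 0.40 (0.36 to 0.44). ITGA5, the fibronectin receptor subunit that also serves as a marker of Migs, was at 275, 246 and 223 CPM, with 0.30 (0.26 to 0.34), and ITGA2, of the collagen receptor, had 0.31 (0.22 to 0.41). The 2 that passed on the other side were ITGA7, of a laminin receptor, at -0.41 (-0.61 to -0.21), and ITGB8 at -0.33 (-0.55 to -0.11). Of 27 mesenchymal genes 13 passed higher with normo-Migs and 4 with CD147KO-Migs (10 and 3 when each count was divided by 2), with a median of 0.0914. TAGLN, a smooth muscle actin-binding protein, had 164 reads after normo-Migs, 174 after hypo-Migs and 82 after CD147KO-Migs. Its log2 difference was 1.02 (0.65 to 1.44). TGFBI had a log2 difference of 0.31 (0.27 to 0.35) and FN1 (fibronectin) one of 0.21 (0.18 to 0.24). Higher with CD147KO-Migs were S100A4, a calcium-binding protein, at 315, 320.2 and 351 CPM with a log2 difference of -0.16 (-0.19 to -0.12), CALD1 (-0.16), SPARC (-0.14) and TWIST1 (-0.35). For TAGLN, TGFBI and FN1 the hypo-Migs level was near that of normo-Migs.

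Genes of G2/M and mitosis were higher with normo-Migs. Many of them carry the cell cycle genes homology region (CHR) near their start, through which the DREAM and MuvB complexes repress them in resting cells and activate them before division. Of 35 well-counted members 32 were higher with normo-Migs and 26 passed the test in that direction, none in the other, beside backgrounds of 16% and 13%, and 20 passed when each count was divided by 2, but none with the spread of the 3 Mig libraries. The median log2 difference was 0.163, with quartiles of 0.094 and 0.217. UBE2C, the ubiquitin carrier of the anaphase-promoting complex, was at 116 CPM after normo-Migs, 104 after hypo-Migs and 91.1 after CD147KO-Migs, with 0.35 (0.28 to 0.41). MKI67, the proliferation marker, was at 607, 559 and 526 CPM, with 0.21 (0.18 to 0.24), and TOP2A, which untangles chromosomes, at 667, 682 and 584 CPM, with 0.19 (0.16 to 0.22). The list's median was -0.0708 for hypo-Migs minus normo-Migs and 0.107 for hypo-Migs minus CD147KO-Migs, comparisons that share a library with the main one.

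The genes of G1/S and DNA replication did not follow. Of 34 members 12 passed higher with CD147KO-Migs and 2 with normo-Migs, with a median of -0.0497, and 4 and 0 when each count was divided by 2. CCNE1 and CCNE2, the cyclins that drive entry into S phase, had log2 differences of -0.26 and -0.31, PCNA, the sliding clamp of replication, had -0.13 and MCM5, of the replicative helicase, -0.12, whereas MCM7 (0.05) and CDC45 (0.16) lay on the other side.

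The CHR, searched as TTTGAA on both strands of the same 250 bases, was found in 16 of the 29 matched promoters of the G2/M list (55.2%) and in 788 of 9817 (8.03%). For the 4 members with the largest differences among those that held it, 1 match each is shown in the same way, at chr1:154974626-154974680 (CKS1B, plus strand), chr9:89311141-89311194 (CKS2, plus strand), chr10:128126424-128126477 (MKI67, minus strand) and chr17:40418017-40418072 (TOP2A, minus strand).
CKS1B: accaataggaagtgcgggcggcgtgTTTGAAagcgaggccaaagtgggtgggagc
CKS2: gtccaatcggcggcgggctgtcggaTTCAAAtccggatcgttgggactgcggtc
MKI67: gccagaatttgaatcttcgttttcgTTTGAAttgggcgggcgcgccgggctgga
TOP2A: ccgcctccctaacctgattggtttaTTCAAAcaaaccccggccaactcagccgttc
In the fragments of CKS2 and TOP2A the motif reads on the opposite strand. MKI67 and TOP2A each held another match, both on the strand of the gene, which for MKI67 lies in lower case within the fragment and for TOP2A farther from the start. Outside the list, the 772 well-counted genes with the motif had a median log2 difference of 0.00983, against 0.00703 for the 9029 without it.

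Chaperones and the proteasome were higher with normo-Migs. Of 15 heat shock proteins and cochaperones 13 passed higher with normo-Migs and 1 with CD147KO-Migs, HSPB1 (-0.05), and the median was 0.151. When each count was divided by 2, 9 and 0 passed. The list's median was -0.0963 for hypo-Migs minus normo-Migs and 0.0575 for hypo-Migs minus CD147KO-Migs. HSP90AB1, the constitutive HSP90, was at 2822 CPM after normo-Migs, 2585 after hypo-Migs and 2423 after CD147KO-Migs, with a log2 difference of 0.22 (0.21 to 0.23), after MT-ND4 the largest difference in CPM of the protein-coding genes higher with normo-Migs. HSPA8, the constitutive HSP70, was at 2831, 2633 and 2538 CPM, with 0.16 (0.14 to 0.17), and the inducible HSPA1A at 84.7, 72.1 and 67.3 CPM, with 0.33 (0.25 to 0.41). HSPA1A has a near-identical neighbour, HSPA1B, which had 0.17. Of 37 proteasome subunits 21 passed higher with normo-Migs, led by PSMD13 of the regulatory cap (0.23, 0.16 to 0.29), and the 2 that passed in the other direction were the interferon-inducible PSMB8 and PSMB9, which are also in the MHC list. When each count was divided by 2, 15 and 2 passed. The proteasome median was 0.0918. It was -0.0771 for hypo-Migs minus normo-Migs and 0.0116 for hypo-Migs minus CD147KO-Migs, so hypo-Migs lay close to CD147KO-Migs.

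Glycolysis was higher with normo-Migs. Of its 18 genes 17 were higher and 13 passed (11 when each count was divided by 2), none in the other direction, with a median of 0.125. LDHA, which turns pyruvate into lactate, was at 3599 CPM after normo-Migs, 3553 after hypo-Migs and 3247 after CD147KO-Migs, with a log2 difference of 0.15 (0.14 to 0.16). GAPDH, PKM and PGK1 had 0.13, 0.12 and 0.16. Of 30 hypoxia-responsive genes 13 passed higher with normo-Migs and 2 with CD147KO-Migs, with a median of 0.0686, and 8 and 0 when each count was divided by 2. CA9, a carbonic anhydrase that HIF-1 strongly induces, was at 32.8 CPM after normo-Migs, 32.3 after hypo-Migs and 21.9 after CD147KO-Migs. Its log2 difference was 0.58 (0.45 to 0.72), and its level after PBS was 110.8 CPM. HIF1A itself was on the other side, at 422, 479 and 466 CPM, with -0.14 (-0.18 to -0.11). The hypoxia list had a median of 0.058 for hypo-Migs minus normo-Migs and 0.15 for hypo-Migs minus CD147KO-Migs.

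Genes of growth and translation showed small differences in the same direction. Of 23 genes of ribosome biogenesis that MYC is known to drive, 16 passed higher with normo-Migs (9 when each count was divided by 2) and none with CD147KO-Migs, with a median of 0.103, beside -0.119 for hypo-Migs minus normo-Migs. ODC1, the first enzyme of polyamine synthesis, was at 362 CPM after normo-Migs, 325 after hypo-Migs and 290.0 after CD147KO-Migs, with 0.32 (0.28 to 0.36), and NPM1 (nucleophosmin) at 1979, 1878 and 1754 CPM, with 0.17 (0.16 to 0.19). Of 76 mitochondrial ribosomal proteins 30 passed higher with normo-Migs (10 when each count was divided by 2) and none with CD147KO-Migs, with a median of 0.103, while the 70 nuclear genes of the respiratory chain had a median of -0.00112. For the mitochondrial ribosomal proteins the median was -0.0781 for hypo-Migs minus normo-Migs and 0.0135 for hypo-Migs minus CD147KO-Migs. Of 84 cytosolic ribosomal proteins 36 passed higher with normo-Migs and 5 with CD147KO-Migs (21 and 4 when each count was divided by 2), with a median of 0.0338 that became 0.0142 when libraries were scaled by total reads. The median over all genes with 5000 or more reads in both libraries was 0.0367, so this list did not stand apart from abundant genes. Of 25 genes of cholesterol synthesis and uptake 8 passed higher with normo-Migs and 1 with CD147KO-Migs (4 and 0 when each count was divided by 2), led by INSIG1 (0.45, 0.34 to 0.56), the sterol-sensing brake on SREBP.

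**Figure D4:**
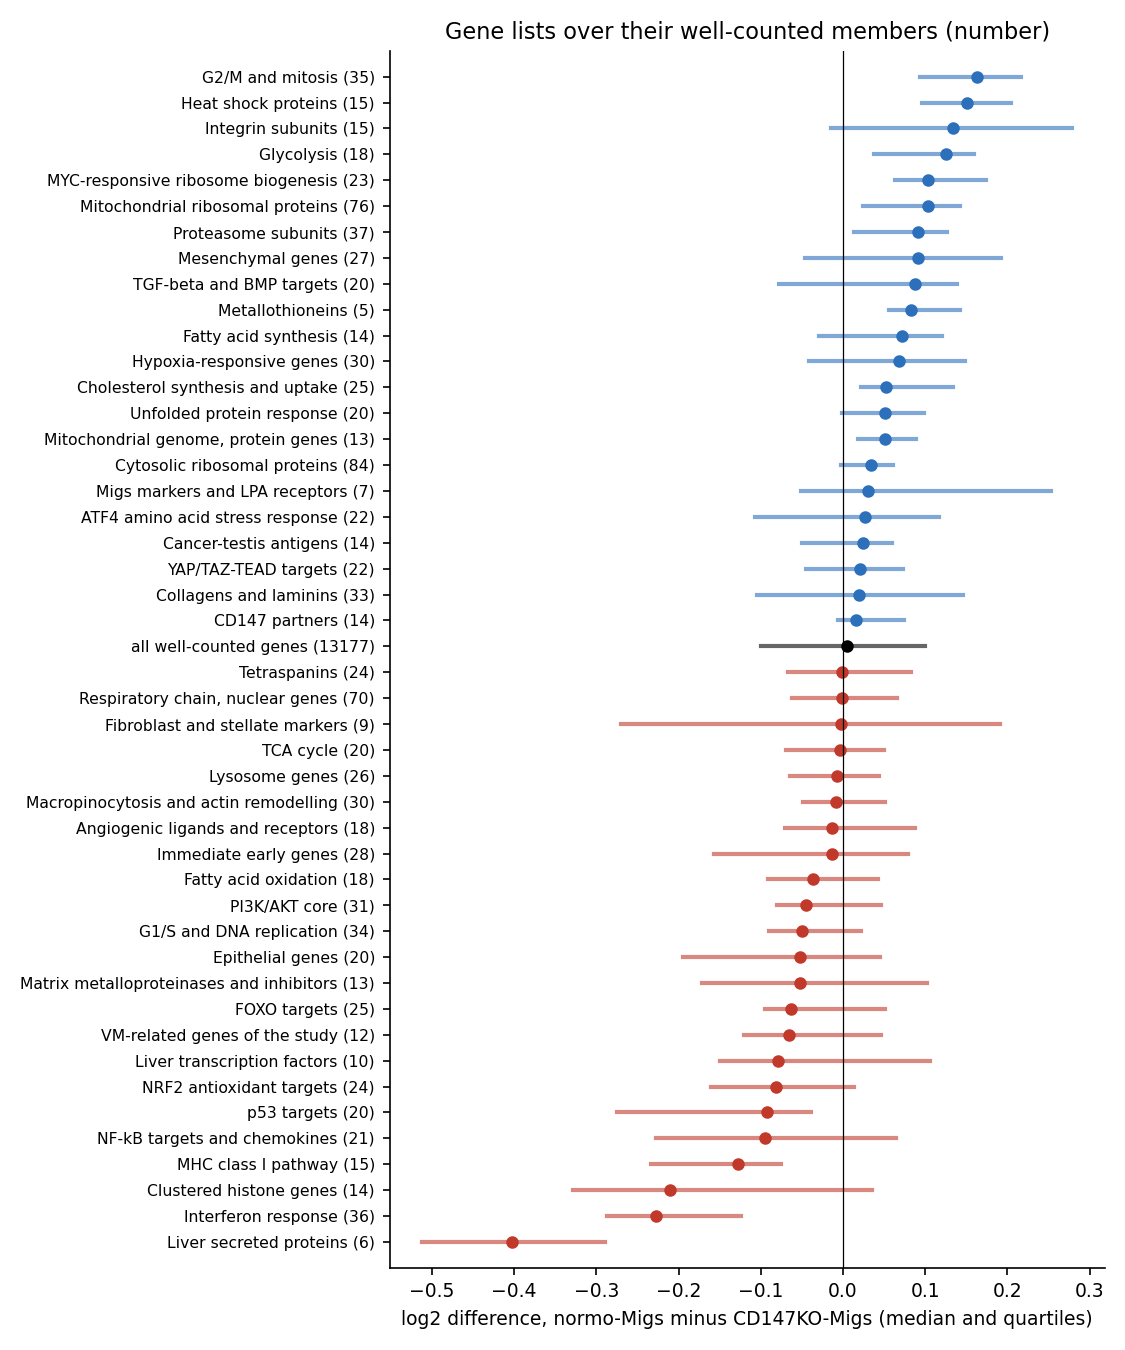
Points are the median and bars the quartiles of the log2 differences, normo-Migs minus CD147KO-Migs, over the well-counted members of each gene list with at least 5 of them, whose number stands in parentheses. The highest median is that of the G2/M genes, 0.163, and the lowest are those of secreted liver proteins, -0.403, and interferon genes, -0.228, while many lists lie close to all well-counted genes (black).

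The genes that the study follows lay on both sides in this pair. BSG, which encodes CD147 in the recipient cells, was at 999 CPM after normo-Migs, 925 after hypo-Migs and 971 after CD147KO-Migs, with a log2 difference of 0.04 (0.02 to 0.06); its RNA in recipients does not check the knockout, which is in the donors. The receptor LPAR6 had 7, 13 and 15 reads and the migrasome markers EOGT and TSPAN4 had log2 differences of -0.06 and -0.05, and none of these 3 passed. Of 12 well-counted genes related to vasculogenic mimicry (VM), the forming of vessel-like channels by tumor cells, 6 passed higher with CD147KO-Migs and 2 with normo-Migs (3 and 1 when each count was divided by 2), with a median of -0.0655; the study named them on these libraries, so they are not independent evidence of a direction. TWIST1 and SNAI1, transcription factors of the epithelial-mesenchymal transition, were at 13.6 and 11.2 CPM after normo-Migs, 12.7 and 12.8 after hypo-Migs and 17.4 and 15.6 after CD147KO-Migs, with log2 differences of -0.35 (-0.53 to -0.18) and -0.48 (-0.67 to -0.29). MMP2, a gelatinase, was at 96.0, 87.6 and 81.0 CPM, with 0.25 (0.17 to 0.32), whereas MMP24 had -0.59 (-0.74 to -0.44). Of 13 well-counted matrix metalloproteinases and inhibitors 5 passed higher with normo-Migs and 2 with CD147KO-Migs. When each count was divided by 2, 2 and 1 passed, and the list's median was -0.0519. CDH5, the endothelial cadherin, had 30, 72 and 59 reads, below the minimum of 50 with normo-Migs, and its log2 difference of -0.89 (-1.62 to -0.28) passed the test (adjusted p = 0.0208 by edgeR's exact binomial test). CDH1, the epithelial cadherin, did not pass. Of 31 core genes of PI3K/AKT signalling 6 passed higher with normo-Migs, led by PIK3CA (0.38, 0.24 to 0.52), and 2 with CD147KO-Migs, one of which was AKT1 (-0.11), with a median of -0.0454, and 3 and 0 passed when each count was divided by 2.

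Several of the largest differences sat in near-identical gene copies. Of the 24 well-counted genes that met the criteria for DEGs, 10 were pseudogenes or members of such families, 3 of them higher with normo-Migs and 7 with CD147KO-Migs. The families were picked after the differences of their members were seen. The share of such genes among all well-counted genes was not counted, so the 10 have no background beside them. CBSL, a copy of the cystathionine beta-synthase gene CBS, had 53 reads after normo-Migs, 78 after hypo-Migs and 352 after CD147KO-Migs, a log2 difference of -2.65, while CBS itself had 2203, 3076 and 2422 reads, and transcripts of both are identical over 2563 bases. RGPD5 and RGPD6, also identical in their transcripts, had 57 and 119 reads with normo-Migs against 202 and 32 with CD147KO-Migs. U2AF1 and U2AF1L5, which encode a splicing factor subunit, had 169 and 513 reads against 382 and 316. In both families one copy was higher where the other was lower, and the log2 difference of the summed copies, taken without a prior count, was -0.144 for RGPD5, RGPD6 and RGPD8 and 0.00623 for U2AF1.

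For NOMO3 the difference of -1.22 became -0.0534 over NOMO1, NOMO2 and NOMO3, and for STAG3L1 the 2.08 became -0.0488 over 3 copies. Over CBS and CBSL the sum had -0.259. In other families the sum kept a difference, -0.875 for MTX1 with its pseudogene MTX1P1, which had 179 reads after normo-Migs, 173 after hypo-Migs and 1251 after CD147KO-Migs and is 98.9% identical to MTX1 over 838 bases, and 0.628 for the creatine kinases CKMT1A and CKMT1B. How reads that fit several copies were assigned is not given in the sources used here, and its part in these differences was not tested.

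**Figure D5:**
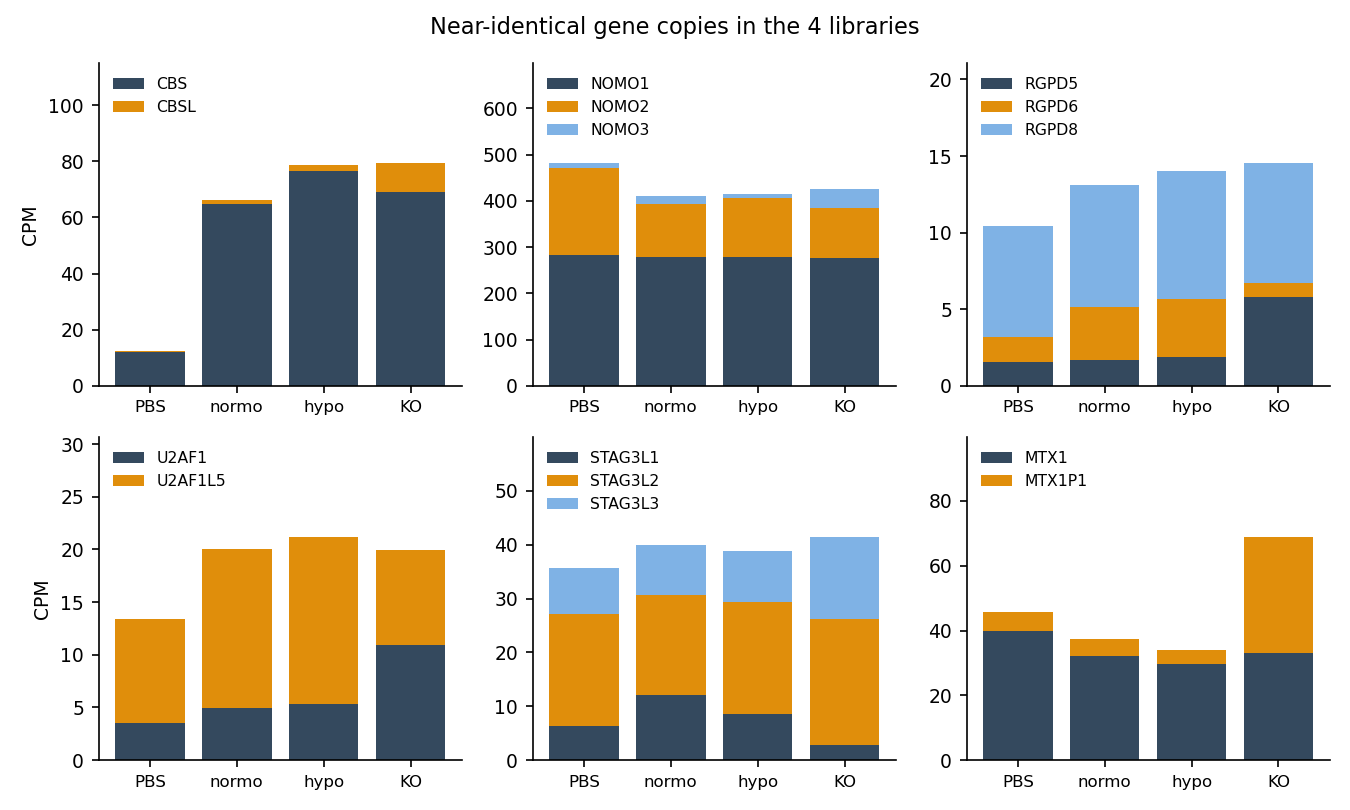
Stacked bars give the level (CPM) of each copy of 6 gene families in the libraries labelled PBS, normo-Migs (normo), hypo-Migs (hypo) and CD147KO-Migs (KO). In NOMO, RGPD5/6, U2AF1 and STAG3L the split between copies differs with CD147KO-Migs more than the height of the whole bar, and in MTX1 the pseudogene MTX1P1 adds to it.

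Outside copies, the largest well-counted differences on the CD147KO-Migs side were in genes of few reads. RARRES3, a phospholipase induced by retinoids, had 60 reads after normo-Migs, 121 after hypo-Migs and 161 after CD147KO-Migs, a log2 difference of -1.36 (-1.84 to -0.95). AKAP5, an anchor of protein kinase A, had 55, 134 and 141 reads and INPP5J, an inositol phosphatase, 203, 472 and 425. PCSK4, with its 51 reads after CD147KO-Migs, lay just inside the minimum of 50 reads, and XAF1 of the interferon list, with 49, 53 and 51 reads, just outside it. For AKAP5 and INPP5J the level with hypo-Migs was close to that with CD147KO-Migs, and for RARRES3 it lay between the pair. Among genes with 3 reads or fewer in 1 library, HBA2, an alpha globin, had 99 reads after normo-Migs, 7 after hypo-Migs and 1 after CD147KO-Migs, a ratio with an interval from 4.16 to 11.99 on the log2 scale. Its copy HBA1 had 28, 16 and 12 reads, and HBB, the beta globin, had 0 reads in all 4 libraries. GAGE12G, a cancer-testis antigen of the X chromosome, had 2, 0 and 159 reads, while the 13 GAGE copies together had 779 reads with normo-Migs and 874 with CD147KO-Migs.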

How the data were processed

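Strand-specific handling of the reads is not given in the sources used here, so overlapping and antisense genes cannot be told apart. The labels name a SMARTer mRNA kit, whereas the supplementary methods describe selection with poly-T beads and random hexamers. The submitters' processing notes name CASAVA 1.8, fastp, HISAT2 2.0.5 and featureCounts 1.5.0-p3 on hg38. The authors deposited raw read counts per gene without normalization, and FPKM values, scaled for depth and the length of each gene, which were used only for an alternative and to rank levels within lists. Both tables held 58735 genes with GENCODE release 29 identifiers and coordinates. Because 15 symbols read as dates in the counts, Ensembl identifiers served to match genes.

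Reads on genes ranged from 33882496 to 40285223 per library, and a count of 0 allows up to 3 reads, or 0.088 CPM with normo-Migs and 0.0857 CPM with CD147KO-Migs, which covers counting error only. Computations used R 4.3.3 (edgeR 4.0.16, DESeq2 1.42.0, mgcv 1.9.3) and Python 3.11.15 (scipy 1.17.1, matplotlib 3.10.9, pandas 2.3.3, numpy 2.4.6). Libraries were scaled by TMM over the 4 libraries (factors 0.986 and 0.999 for the pair), and log2 differences used a prior count of 2. With 1 library per condition a quasi-likelihood fit has no residual degrees of freedom, so edgeR's exact binomial test was used. The procedure was tested on simulated data. The members of the comparison and the gene lists, written by hand, were chosen with earlier results of these data known, and one list pattern for integrins was corrected after the files were read. Named genes were those the study names, the 12 well-counted protein-coding genes with the largest difference in each direction, 4 of other types, 4 near the floor, the 10 with the largest CPM difference, and for each list its 3 largest differences past the test and its most abundant member. A few genes that this rule names are not reported here. Other members named in the text were chosen after their values were seen. Promoter sequences came from RefSeq on GRCh38.p14, and the identity of copies from GENCODE 29 transcripts of 800 bases or more, the shorter aligned within the longer. Alternatives concerned scaling, filters, the prior count, FPKM, the assumed spread and a trend with GC content and length. The one that divides each count by 2 was chosen after seeing the data. Western blots, imaging and animal data were not analysed here.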

Additional observations from a re-analysis of the deposited data

Results flagged for a closer look

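The library labelled PBS holds a signal outside the main comparison. In it 251 genes had 3 reads or fewer that had 100 or more reads in each of the 3 Mig libraries, and 13 genes had the reverse pattern. Among the first were SPARC (0 reads after PBS, 13404 after normo-Migs, 16845 after hypo-Migs and 15206 after CD147KO-Migs) and the carbonic anhydrase CA12 (0, 6173, 7732 and 6653 reads). Among the second were the estrogen-related receptor ESRRG (414 reads with PBS and 0 in each Mig library) and the proteoglycan FMOD (385 and 0). Between pairs of Mig libraries at most 1 gene had such a contrast in either direction. The mitochondrial genome took 2.69% of the reads with PBS and 5%, 5.16% and 5.06% with normo-Migs, hypo-Migs and CD147KO-Migs. Nothing in the comparison of normo-Migs with CD147KO-Migs uses PBS reads, apart from the filter of 10 reads, which 699 of the tested genes met with PBS alone, and the TMM factors. The source of the difference was not tested.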

How the results depend on the processing

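At the criteria for DEGs 977 genes were counted, and 958 to 1024 under total reads, DESeq2 size factors, leaving out the mitochondrial genome, no filter, a prior count of 0.25 or removal of the GC and length trend, whereas fewer were counted under these settings: 418 among protein-coding genes alone, 327 with 10 reads required in each library, 156 with each count divided by 2, 45 on log2(FPKM + 1) values, 281 and 2 with assumed coefficients of variation of 0.1 and 0.4, and 347 with that of the 3 Mig libraries (0.0746). The count of 248 well-counted genes past 1.5-fold became 113 with each count divided by 2, 27 on FPKM, 36 and 0 with coefficients of 0.1 and 0.4, and 88 with that of the Mig libraries. DESeq2, whose dispersion was estimated by treating all 3 Mig libraries as replicates, called 0 at either criterion, with 375 genes at an unadjusted p under 0.05, against 7054 by edgeR's exact binomial test; with a coefficient of 0.4, 361 genes had an unadjusted p under 0.05. Assuming more spread and testing fewer genes lower a count by construction. List medians were compared over 45 lists and 9 settings, of which one leaves out the mitochondrial list. Of these medians 402 lay within the interval of the main median and 2 did not, both under total reads. The 2 were cytosolic ribosomal proteins at 0.0142 and macropinocytosis genes at -0.0285. That interval was taken over the genes of each list, with no replicate behind it. Rescaling moves all genes by nearly the same small amount, so most medians could hardly leave it. The medians of CD147 partners and of collagens and laminins turned from positive to negative under total reads and still counted as within it. The count of 402 therefore cannot show that the medians are stable. MT-CO1 turned from 0.02 to -0.00179 under total reads. GC content and length accounted for 0.165% of the deviance of the log2 differences. No paired analysis was possible because each condition has 1 library, and no replicate could be left out. Depth limits most the genes whose lower count of the pair was 50 to 200 reads, where counting alone gives an SD of 0.193 in the log2 difference, beside an observed robust SD of 0.351.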

Other observations

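Some gene lists that the comparison does not turn on had values of their own. Of 14 well-counted histone genes of the clustered loci, 4 passed the test higher with CD147KO-Migs and 2 with normo-Migs (3 and 0 when each count was divided by 2), with a median log2 difference of -0.21. HIST1H2BD, an H2B gene, had 322 reads after normo-Migs, 482 after hypo-Migs and 488 after CD147KO-Migs, a log2 difference of -0.56, and HIST1H4H had -0.88 on 75 and 144 reads with normo-Migs and CD147KO-Migs. On the normo-Migs side HIST1H3H had 0.62 on 131 and 87 reads and HIST1H2BN 0.58 on 119 and 81. Of 20 targets of TGF-beta and BMP signalling 7 passed higher with normo-Migs and 2 with CD147KO-Migs (4 and 2 when each count was divided by 2), with a median of 0.0871. Collagens and laminins were split evenly, with 8 past the test on each side (6 when each count was divided by 2) and a median of 0.0192. Tetraspanins, membrane organisers from which migrasome markers are drawn, had a median of -0.000954, with 3 past the test on each side, or 0 on the normo-Migs side and 2 on the other when each count was divided by 2. Genes of macropinocytosis and actin remodelling had a median of -0.00889, with 8 past the test higher with normo-Migs and 2 with CD147KO-Migs (2 and 0 with divided counts), and lysosome genes one of -0.00761, with 4 and 5 (1 and 3 with divided counts).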
